A study of Mus musculus with 7 samples.

Results

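The 2 array probes described here read the seed of miR-150, a miRNA of resting lymphocytes. The rule that picks them reads probe sequences and no measured value. Each of the 1874 small RNA probes of the array was read as its target, the reverse complement of the probe without the last 10 T and a leading G, and a probe was kept where bases 2 to 8 of the target equalled those of probe UC1005139. UC1005139 itself and UC1005140 met this rule. A miRNA is a short RNA that guides Argonaute proteins to messenger RNAs, and its seed, bases 2 to 8, is the part that pairs with them. miR-150 is known in mouse and human as abundant in mature resting B, T and NK lymphocytes and as falling when T cells are activated. In mouse B cells it is known to repress Myb, a transcription factor of lymphocyte development, and its early expression is known to block B cell maturation.

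The samples were CD4 T cells with the DO11.10 receptor for an ovalbumin peptide, from Balb/c mice aged 6 to 8 weeks, and 7 arrays were hybridised, each with the Cy3-labelled RNA of 1 sample. The sOVA host group (3 arrays) held CD44 high cells taken 5 days after Rag2-/- DO11.10 cells had been transferred into sOVA mice. The WT host group (2 arrays) held CD44 high cells taken at the same time after the same kind of transfer into wild-type Balb/c mice. All hosts received ovalbumin-peptide-loaded, LPS-activated dendritic cells 24 h after transfer per the protocol, although the titles read OVA immunized for the WT host and sOVA immunized for the sOVA host, so host and immunization cannot be told apart. The naive group (2 arrays) held CD25 negative, CD44 low cells of DO11.10 Rag2+/+ mice, so that it differed from both host groups in Rag2 genotype, transfer, immunization and sort at once. Spleens and lymph nodes were pooled from several mice, and since no label says that replicates came from separate pools, the p-values below reflect how these particular samples vary, possibly for technical reasons alone.

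The targets of the members are shown because they differ by 1 base, outside the seed, which stands in capitals.
UC1005139: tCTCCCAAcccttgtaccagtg
UC1005140: tCTCCCAAtccttgtaccagtg
UC1005139 carries the mature sequence known as miR-150-5p. Counted from 1 at the 5′ end of the target, UC1005140 differs from it by C9T and shares the other 21 of 22 bases. Probes this alike can bind the same RNA, so the members are not independent measurements, and the array does not show which RNA bound UC1005140. The array also carries the opposite arm of the same hairpin, which the seed rule did not use. The probe UC1005142 matches mmu-miR-150-3p of RefSeq (GRCm38.p6, chr7:45121798-45121819, plus strand), within the Mir150 gene at chr7:45121757-45121821, a gene of 65 bases annotated as a miRNA that no other annotated gene overlaps. UC1005141 differs from it by T20C.
UC1005142: cTGGTACAggcctgggggatag
UC1005141: cTGGTACAggcctgggggacag

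Both members were bright on every array. Their intensity was above background on all retained spots, no spot was saturated, and the SD between the spots of a probe on an array was at most 0.161 in log2 units. UC1005139 had a mean intensity of 28833, 46859 and 29302 on sOVA host arrays 1 to 3, of 202035 and 40031 on WT host arrays 1 and 2, and of 311405 and 239541 on naive arrays 1 and 2. These raw intensities include how bright each array was as a whole: among the 253 probes that every array detected, the 75th percentile of intensity was 9860, 11114 and 2729 in the sOVA host, 9281 and 3591 in the WT host, and 11868 and 15743 in naive cells. sOVA host array 3 and WT host array 2 were the dimmest. All levels below are therefore log2 intensity minus the log2 of this percentile of the same array, so that 0 means as bright as the percentile, and they show amounts relative to the other small RNAs of the sample, not amounts per cell. In sorted cells measured in bulk, fewer cells with the miRNA and less of it per cell cannot be told apart.

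UC1005139 was lowest in the sOVA host, where the arrays disagreed. Its log2 level was 1.55, 2.08 and 3.42 on sOVA host arrays 1 to 3, 4.44 and 3.48 in the WT host, and 4.71 and 3.93 in naive cells. sOVA host arrays 1 and 2 stood below all others at 14.6% and 21.1% of the naive mean, while array 3, at 53.7%, lay just under WT host array 2, at 55.8%. WT host array 1 was at 109% of the naive mean, and the WT host and naive groups overlapped. The group means were 2.35 ± 0.97 (SD, n = 3) in the sOVA host, 3.96 ± 0.68 (SD, n = 2) in the WT host and 4.32 ± 0.56 (SD, n = 2) in naive cells.

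UC1005140 followed the same order. Its log2 level was -1.12, -0.57 and 1.60 on sOVA host arrays 1 to 3, 2.61 and 1.62 in the WT host, and 2.58 and 2.31 in naive cells. Again sOVA host arrays 1 and 2, at 8.47% and 12.3% of the naive mean, were apart from all others, and sOVA host array 3 (55.5%) was next to WT host array 2 (56.4%). The means were -0.03 ± 1.44 (SD, n = 3) in the sOVA host, 2.12 ± 0.70 (SD, n = 2) in the WT host and 2.45 ± 0.19 (SD, n = 2) in naive cells. Across the 7 arrays the members had a Pearson r of 0.985, a description of probes that share sequence, arrays and scaling. With quantile normalization this r was 0.898.

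The first comparison asks whether miR-150 is lower in activated than in naive cells when the antigen is foreign to the host. In the WT host neither member was called. UC1005139 had a log2 change of -0.36 ± 0.70 (SE) from naive, with a 95% interval from -2.05 to 1.33 (adjusted p = 0.721, limma with Benjamini-Hochberg adjustment over 401 tested probes). UC1005140 had a change of -0.33 ± 0.90 (SE), with an interval from -2.51 to 1.85 (adjusted p = 0.793, limma). Both intervals are wide in both directions, so the arrays do not show that the levels were alike. Of all tested probes 6.48% were called lower and 13.7% higher in this comparison, and 129 of 401 had a larger decrease than UC1005139. The size depended on scaling and on single arrays, with no call in any of 18 alternatives. The change of UC1005139 was -1.38 with quantile normalization (adjusted p = 0.214, limma, the lowest of a range up to 0.977) and -0.87 with the 75th percentile over all probes. Without WT host array 1 it was -0.84, without naive array 2 -0.75, without WT host array 2 0.12 and without naive array 1 0.03. The change of UC1005140 ranged from -0.84 with the 75th percentile over all probes to 0.17 without WT host array 2, and was -0.83 without WT host array 1.

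The second comparison asks the same of cells activated in the sOVA host. Both members were lower there than on either naive array, without passing the test. UC1005139 had a log2 change of -1.97 ± 0.64 (SE), 3.92-fold lower in the sOVA host than in naive cells, with an interval from -3.51 to -0.43 (adjusted p = 0.0658, limma). UC1005140 had a change of -2.48 ± 0.82 (SE), 5.57-fold lower, with an interval from -4.47 to -0.48 (adjusted p = 0.0673, limma). The sOVA host arrays did not overlap the naive arrays for either member, as held, in the same direction, for 30.4% of all tested probes. Of the tested probes 6.23% were called lower and 17% higher, and only 19 and 8 of the 401 had a larger decrease than UC1005139 and UC1005140. The median change of all tested probes was 0.11.

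The call depended on 1 array and on the scaling. Without sOVA host array 3 both members passed: UC1005139 fell by 2.51 ± 0.45 (SE) on the log2 scale, to a level 5.69-fold lower than in naive cells (adjusted p = 0.0116, limma), and UC1005140 fell by 3.29 ± 0.40 (SE), 9.78-fold (adjusted p = 0.00422, limma). In that fit 11.8% of the 407 tested probes were called lower. With all arrays kept, the 75th percentile over all probes called both members lower (adjusted p = 0.0180 and 0.00977, limma), quantile normalization called UC1005139 (0.0249) and scaling to the median called UC1005140 (0.0478). Of the 401 tested probes these scalings called 49, 35 and 24 lower, against 25 in the fit reported. The 75th percentile over all probes also moved the median change of all tested probes from 0.11 to -0.71. Over all 18 alternative settings the adjusted p ranged from 0.0116 to 0.359 for UC1005139 and from 0.00422 to 0.320 for UC1005140, and every change was negative. The arrays lay on 1 slide in 2 rows, and sOVA host array 3 shared row 2 with naive array 2 and WT host array 2. Within row 1 the sOVA host minus naive difference of UC1005139 was -2.90 and within row 2 it was -0.50. For UC1005140 these differences were -3.42 and -0.72. With the slide row as a block the changes were -1.95 and -2.38 (adjusted p = 0.0641 each, limma). Row and array cannot be told apart here, since row 2 holds 1 array of each group.

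The third comparison sets the hosts against each other, for cells that met ovalbumin as a self antigen and cells that met it as a foreign one, as far as the labels tell the hosts apart. Both members were lower in the sOVA host, without passing. UC1005139 had a log2 change of -1.61 ± 0.64 (SE), sOVA host minus WT host, with an interval from -3.16 to -0.07 (unadjusted p = 0.0431 and adjusted p = 0.401, limma). UC1005140 had a change of -2.15 ± 0.82 (SE), with an interval from -4.14 to -0.16 (unadjusted p = 0.0386 and adjusted p = 0.389, limma). limma called 0% of the tested probes in this comparison, with 47 at an unadjusted p under 0.05. The groups did not overlap for either member, as held in this direction for 18% of the tested probes, yet sOVA host array 3 lay close to WT host array 2 for both. Of the 401 probes, 4 and 2 had a larger decrease than UC1005139 and UC1005140.

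Without sOVA host array 3 the difference between the hosts passed for both members. UC1005139 was then 4.44-fold lower in the sOVA host than in the WT host (log2 change -2.15 ± 0.45 SE, adjusted p = 0.0295, limma) and UC1005140 was 7.79-fold lower (-2.96 ± 0.40 SE, adjusted p = 0.00999, limma). Of the probes tested without that array 7.86% were called lower between the hosts. Over all alternatives the adjusted p ranged from 0.0295 to 0.928 for UC1005139 and from 0.00999 to 0.928 for UC1005140. Within slide row 1 the host difference was -2.63 for UC1005139 and -3.46 for UC1005140, while within row 2 it was -0.05 and -0.02. With the slide row as a block it was -1.59 and -2.05 (adjusted p = 0.340 each, limma).

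With the scaling used here, the gap between the members was widest on the arrays where both were lowest. The gap is the log2 change of UC1005140 minus that of UC1005139, each from its own naive mean, and it was -0.79 and -0.77 on sOVA host arrays 1 and 2. It was 0.05 on sOVA host array 3, 0.04 and 0.01 in the WT host, and -0.26 and 0.26 in naive cells, so only 2 of the 5 host arrays lay outside the spread of the naive arrays. The mean gap was -0.51 for sOVA host minus naive (exact permutation p = 0.3, two-sided, against a smallest possible p of 0.1), and 0.03 for WT host minus naive (exact permutation p = 1, two-sided, against a smallest possible p of 0.333). With so few arrays neither test could reach 0.05, so they decide nothing about the gap. Its sign in the sOVA host depended on the scaling. With quantile normalization UC1005139 changed by -2.94 and UC1005140 by -2.69 in the sOVA host, and by -1.38 and -0.48 in the WT host.

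The 3p arm gave a separate reading of the same hairpin and showed the same arrays apart. UC1005142 was at -6.27, -5.69 and -2.53 on sOVA host arrays 1 to 3, at -2.14 and -2.50 in the WT host, and at -2.62 and -2.65 in naive cells. sOVA host array 2 thus measured 12% of the naive mean, while array 3 (108%) and both WT host arrays (141% and 110%) were at or above it. On sOVA host array 1 no spot of UC1005142 or of the near-identical probe UC1005141 was well above background, so the level of neither is measured there. Relative to naive cells, UC1005142 had a log2 change of -2.20 ± 1.07 (SE) in the sOVA host (adjusted p = 0.171, limma) and of 0.31 ± 1.17 (SE) in the WT host (adjusted p = 0.836, limma), and the WT host value turned to -0.20 and -0.03 under other scalings. The sOVA host change takes in the value of array 1, so its size is uncertain.

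UC1005141 was likewise lowest on sOVA host arrays 1 and 2. It was at -6.16 (not well above background), -5.73 and -2.68 on the sOVA host arrays, -2.24 and -2.70 in the WT host, and -2.78 on each naive array. Between the hosts the log2 change was -2.51 ± 1.07 (SE) for UC1005142 and -2.39 ± 1.01 (SE) for UC1005141 (adjusted p = 0.425 each, limma), and neither passed. The sizes of these changes are uncertain too, since they take in sOVA host array 1. Without sOVA host array 3 both probes were called lower in the sOVA host, against naive cells (adjusted p = 0.00154 each, limma) and against the WT host (adjusted p = 0.00619 each, limma). Of the 407 probes then tested, 11.8% and 7.86% were called lower in these comparisons. Those fits rest on 2 sOVA host arrays, of which array 1 did not measure these probes above background, so no size is given for them. Both probes also entered the test only through the naive and WT host groups, where every array detected them. The calls therefore decide nothing about the 3p arm. Over all alternatives the adjusted p ranged from 0.00154 to 0.441 against naive cells and from 0.00619 to 0.928 between the hosts. Across the 7 arrays UC1005139 had a Pearson r of 0.920 with UC1005142 and 0.922 with UC1005141, again over shared arrays and scaling. Both values take in sOVA host array 1, where neither 3p probe was well above background.

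Targets that hold the heptamer away from the seed position were not detected, and they are shown for comparison. UC1005982 and UC1006290 hold the same 7 bases from target base 4 and target base 9.
UC1005982: gttCTCCCAAcgtaagcccagc
UC1006290: tgggtaaaCTCCCAAggatca
Neither had a spot well above background on any of the 7 arrays, and their mean intensities lay between 10.2 and 35.4.

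Among probes with another seed, that of miR-28a-5p had the pattern most like UC1005139.
UC1004860: aAGGAGCTcacagtctattgag
Over the 7 arrays its scaled level had a Pearson r of 0.951 with that of UC1005139, the highest of 251 probes detected on all arrays. It was at -5.36, -5.26 and -4.18 on sOVA host arrays 1 to 3, at -3.47 and -4.07 in the WT host, and at -3.93 and -3.96 in naive cells. As for miR-150, sOVA host arrays 1 and 2 were the lowest and array 3 lay beside WT host array 2. The next were UC1005542, which matches mmu-miR-362-5p (r = 0.876), UC1005093, which matches mmu-miR-139-5p (r = 0.813), and UC1005768 and UC1005763, which matched no RefSeq mouse miRNA (r = 0.791 and 0.783). Under quantile normalization miR-28a-5p and miR-362-5p again had the highest and next highest r, while UC1005093 came to rank 38 (r = 0.692) and UC1005763 to rank 9 (r = 0.806). The r of miR-28a-5p with UC1005139 (0.914) was then above that between the members (0.898).

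Some miRNAs known as high in resting lymphocytes fell in each host, and most did not pass the test. Of 48 probes listed for miR-342, miR-139, miR-101, miR-151, miR-125, miR-26, miR-29, miR-30 and miR-181, 34 were tested. In the sOVA host 4 of them fell, against 6.23% of all tested probes, 0 rose and 30 did not pass, with a median change of -1.04 against 0.11 over all tested probes. In the WT host 9 fell, against 6.48% of all tested probes, 0 rose and 25 did not pass, with a median of -1.57 against 0.24. Between the hosts 0 passed, with a median of 0.16 against -0.15. These counts depended on single arrays. Without sOVA host array 3, 10 fell in the sOVA host and 17 in the WT host, against 11.8% and 17.7% of all tested probes. Without naive array 1, 1 fell in each host, against 0.616% of all tested probes in each. The sOVA host count was also 2 without naive array 2, 8 without sOVA host array 1 and 2 without sOVA host array 2. Of all tested probes 3 of 401, 26 of 403 and 10 of 407 were then called lower. The WT host count was 1 without naive array 2, WT host array 1 or WT host array 2, where 4 of 401, 5 of 406 and 4 of 426 tested probes were called lower.

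The probe UC1004861, matching mmu-miR-29a-3p, a miRNA known to target extracellular matrix genes and the interferon-gamma pathway, averaged 1.21 in the sOVA host, 1.15 in the WT host and 2.96 in naive cells, with changes from naive of -1.75 in the sOVA host and -1.81 in the WT host (adjusted p = 0.0632 and 0.0843, limma). UC1004842, matching mmu-miR-26a-5p, had changes of -1.49 and -2.18 in the same order (adjusted p = 0.191 and 0.114, limma). With the slide row as a block both passed in the sOVA host (adjusted p = 0.00954 and 0.0497, limma) and in the WT host (adjusted p = 0.0139 and 0.0340, limma). That block called 62 of 401 tested probes lower in the sOVA host and 46 of 401 in the WT host. The fit reported called 25 and 26 lower. Over all alternatives the adjusted p of UC1004861 ranged from 0.00954 to 0.328 in the sOVA host and from 0.0108 to 0.380 in the WT host, and that of UC1004842 from 0.0330 to 0.482 and from 0.00506 to 0.443. UC1005507, matching mmu-miR-342-3p, averaged 0.53 in the sOVA host, 0.57 in the WT host and 0.37 in naive cells, and its changes of 0.16 and 0.20 (adjusted p = 0.778 and 0.758, limma) turned negative under some alternatives.

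Many probes of miRNAs known as raised by T cell activation rose in each host. Of 24 probes listed for miR-155, miR-21, miR-146, miR-132, miR-212, miR-182, miR-183, miR-96, miR-221, miR-222, miR-210 and miR-214, 19 were tested. In the sOVA host 16 rose, against 17% of all tested probes, 0 fell and 3 did not pass, with a median change of 2.58. In the WT host 13 rose, against 13.7% of all tested probes, 0 fell and 6 did not pass, with a median of 2.48. Between the hosts 0 passed, with a median of -0.18. Without naive array 1, 7 rose in each host, against 2.46% of all tested probes in the sOVA host and 2.87% in the WT host. Without naive array 2, 7 rose in the sOVA host, against 15 of all 401 tested probes. With the 75th percentile over all probes 8 rose in each host, against 29 of 401 in the sOVA host and 25 of 401 in the WT host.

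UC1004818, matching mmu-miR-21a-5p, a miRNA that represses Pdcd4 in several cell types, rose 7.14-fold in the sOVA host and 10.3-fold in the WT host, each against naive cells (adjusted p = 0.00187 and 0.00138, limma). With the 75th percentile over all probes the sOVA host call was lost (adjusted p = 0.0566, limma, the highest of a range from 0.000871). UC1005156, matching mmu-miR-155-5p, a miRNA needed for T cell responses in mouse, averaged 0.75 in the sOVA host, -0.67 in the WT host and -3.30 in naive cells, and rose in the sOVA host (adjusted p = 0.0211, limma) without passing in the WT host (adjusted p = 0.0843, limma). UC1005119, matching mmu-miR-146a-5p, which represses Traf6 and Irak1, averaged 1.07, -0.55 and -3.01 in the same order of groups, with adjusted p = 0.0158 in the sOVA host and 0.0843 in the WT host (limma). The sOVA host call of UC1005156 was lost without naive array 1 (0.143), naive array 2 (0.131) or sOVA host array 1 (0.0506), and that of UC1005119 without naive array 1 (0.0856) or naive array 2 (0.126), all adjusted p by limma. Over all alternatives it ranged from 0.000381 to 0.143 for UC1005156 and from 0.00154 to 0.126 for UC1005119. In the WT host both passed with the slide row as a block (adjusted p = 0.0415 and 0.0412, limma) and without sOVA host array 3 (adjusted p = 0.00138 and 0.00697, limma). These settings called 84 of 401 and 118 of 407 tested probes higher in the WT host, against 55 of 401 in the fit reported. The difference between the hosts did not pass for either (adjusted p = 0.582 and 0.458, limma), and the host groups overlapped for both. UC1005156 was at 1.39, 1.81 and -0.95 on sOVA host arrays 1 to 3, and at -0.77 and -0.57 on WT host arrays 1 and 2. UC1005119 was at 1.7, 1.89 and -0.38, and at -0.88 and -0.22, on the same arrays. The higher sOVA host means thus came from arrays 1 and 2.

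Markers of other cells differed between arrays and are given for each list as the summed level of all its probes, in percent of the array's 75th percentile. The 2 liver probes (miR-122 seed) summed to 59.5, 0.341 and 264 on sOVA host arrays 1 to 3, to 2.13 and 19.5 in the WT host, and to 0.319 and 0.130 in naive cells, and were detected on sOVA host arrays 1 and 3 and on both WT host arrays. The 5 erythroid probes (miR-451, miR-144, miR-486) summed to 80.1, 9.98 and 328 on the sOVA host arrays, to 16.9 and 49.2 in the WT host, and to 87.1 and 46.5 in naive cells. sOVA host array 3, a dim array, was highest for both lists on this scale. By summed intensity without scaling, naive array 1 was highest for the erythroid list, at 10338 against 8957 on sOVA host array 3.

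The 7 endothelial and stromal probes (miR-126, miR-143, miR-145) summed to 23, 2.53 and 84.2 on the sOVA host arrays, to 3.64 and 12.9 in the WT host, and to 2.15 and 6.25 in naive cells, with none of 7 detected on sOVA host array 2, WT host array 1 and naive array 1. The 3 myeloid probes (miR-223) summed to 1.81, 3.67 and 5.43 on the sOVA host arrays, to 2.86 and 2.23 in the WT host, and to 16.8 and 19.3 in naive cells. None of these 3 was detected on sOVA host array 1 or WT host array 2. The 15 epithelial probes (miR-200 family, miR-203, miR-205) summed to between 10.2 and 15.1 on the sOVA host arrays, to 7.79 and 7.64 in the WT host, and to 12.8 and 11.8 in naive cells. None of these 15 was detected on sOVA host array 3 or WT host array 2. Sums on arrays without a detected probe are not measured levels. Of 2 muscle probes (from miR-1, miR-133 and miR-206) 1 was detected, on sOVA host array 3, and none of 7 neural probes (miR-124, miR-9) was detected on any array. The part of such RNA in the miR-150 levels was not tested.

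Both members spread more within the sOVA host than the median tested probe, as did some other probes. The SD of UC1005139 over the 3 sOVA host arrays, 0.97, compared with a median SD of 0.55 over all tested probes, and 24.7% of these had a larger one. For UC1005140, with an SD of 1.44, 7.48% had a larger one. Without array 3 the SD over the remaining sOVA host arrays was 0.37 for UC1005139 and 0.38 for UC1005140, against a median of 0.18. In the WT host their SDs were 0.68 and 0.7 against a median of 0.31. In naive cells they were 0.56 and 0.19 against 0.13.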

How the data were processed

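Small RNA of 7 samples was labelled with Cy3 from total RNA and hybridised to custom Agilent arrays, 1 sample per array. Per the file headers, the deposited scanner files hold spot intensity, background-subtracted and spatially detrended by Agilent Feature Extraction 9.5.1.1 but not normalized between arrays, whereas the submitters' processing notes name version 10.6. The deposited value table holds log2 values with near-equal medians (5.69 to 5.70). Its method is not given in the sources used here, none of its 1776 rows matched a member by identifier, and it gave no value.

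From the scanner files, spots flagged as outliers and control spots were dropped, and log2 values were averaged over the remaining spots of each probe (7 at most). Levels are relative to an array's 75th percentile among the 253 probes that every array detected, where detection means that at least 50% of a probe's spots were well above background. The test took the 401 of 1874 probes that all arrays of some group detected, both members among them. limma 3.58.1 (R 4.3.3) was fitted to all 7 arrays with group means, p-values were adjusted over all tested probes by the Benjamini-Hochberg method, and a probe was called at an adjusted p under 0.05. The fit was tested on simulated data.

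Probes were named through RefSeq mouse miRNAs (GRCm38.p6) by equal or shared target start, which named 613 probes. The lists for miR-151, miR-486, miR-122, miR-143, miR-145 and miR-124 were read by seed. The miR-150 probes were left out of the list of resting lymphocyte miRNAs, which had named them. Members and lists were chosen with earlier results of these data known. All members are named, with the 5 most correlated other probes and up to 3 tested probes of each of the lists of resting and activation miRNAs, those of highest mean signal. Probes of one target were kept apart because the members are probes. The number of arrays limits the precision.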

Additional observations from a re-analysis of the deposited data

How the results depend on the processing

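Of 18 alternatives, both members kept a negative change in the sOVA host against naive and against the WT host in all, and calls depended on the setting. For sOVA host minus naive, calls were gained for UC1005139 with the 75th percentile over all probes (-2.79, adjusted p = 0.0180, limma), quantile normalization (-2.94), the replicate block (-2.51) and without both dim arrays (-2.51), and for UC1005140 with the 75th percentile over all probes (-3.29), the median over probes detected on all arrays (-2.57), the replicate block (-3.29) and without both dim arrays (-3.29). For sOVA host minus WT host, the replicate block gave a call for UC1005140 (-2.96) and leaving out both dim arrays for both members (-2.63 and -3.46). Against naive, the replicate block called 45 of 401 tested probes lower in the sOVA host, and leaving out both dim arrays 68 of 432. Between the hosts these settings called 12 of 401 and 25 of 432 lower. Leaving out 1 array at a time, the changes of UC1005139 and UC1005140 ranged from -2.51 to -1.57 and from -3.29 to -1.93 against naive, and from -2.15 to -1.13 and from -2.96 to -1.60 between the hosts. For WT host minus naive they ranged from -0.84 to 0.12 and from -0.83 to 0.17, and without both dim arrays they were 0.12 and 0.17. The cause was not tested.

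Pairing by replicate number is undecided: in groups of 2, deviations from the group mean mirror each other. Same-numbered arrays correlated at 0.18 to 0.33, but sOVA host array 2 at -0.12 and -0.61. Arrays sharing a slide row gave 0.12 to 0.63. The replicate block takes up sOVA host array 3, which has no partner, and so gives the changes found without that array.

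The 3p arm probes UC1005142 and UC1005141 turned from 0.31 to -0.20 each with the 75th percentile over all probes and to -0.03 and -0.06 with quantile normalization, for WT host minus naive. UC1005507 turned to -0.32 and -0.66 (WT host and sOVA host minus naive) with the 75th percentile over all probes, to -0.07 with the median scaling and -0.28 without WT host replicate 1 (WT host), and to -0.04 without sOVA host replicate 2 (sOVA host), and leaving out 1 array at a time it ranged from -0.28 to 0.67 in the WT host and from -0.04 to 0.42 in the sOVA host. Calls over all probes ranged from 17 to 190 for WT host minus naive (81 in the fit reported), from 15 to 188 for sOVA host minus naive (93) and from 0 to 85 between the hosts. The 75th percentile over all probes moved the median change to -0.28 and -0.71 and gave 25 higher and 24 lower in the WT host and 29 higher and 49 lower in the sOVA host, against 55 and 26 and 68 and 25. Quiescence probes called lower ranged from 1 to 17 and from 1 to 13 in the WT and sOVA host, and activation probes called higher from 7 to 18 in each. Among all tested probes, those called lower ranged from 3 to 72 and from 2 to 68 in the same order of hosts, and those called higher from 14 to 118 and from 12 to 120. miR-28a-5p had the highest r under the 3 other scalings (0.914 to 0.980) and without sOVA host array 3 (0.953). Leaving out both dim arrays and keeping outlier-flagged spots were alternatives chosen after seeing the data. The deposited value table was not run, as no row matched a member.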
